A study of Mus musculus with 17 samples.

Results

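The genes of the cytosolic ribosome were followed across the whole series: 82 of the 20621 gene rows, chosen by symbol (Rpl or Rps followed by a number and an optional a, x, l or l1, the stalk genes Rplp0 to Rplp2, and Rpsa) with at least 10 counts summed over the 17 libraries. Of 83 matching symbols, Rpl32l had no counts and was left out, and all 82 members passed the filter on low counts. Total RNA came from E14 mouse embryonic stem cells (a line derived from the inner cell mass of the blastocyst), grown on gelatine in 10% serum with 1000 U per mL LIF. The groups were RNAPII-mut cells (genotype slow/slow, a slowly elongating RNA polymerase II according to the series title; "mutant" from here on) and WT cells. Each genotype was taken after 0, 1, 2 and 7 days of 2i, which adds a MEK inhibitor (1 µM PD0325901) and a GSK3 inhibitor (3 µM CHIR99021) to serum and LIF. Each group had 2 libraries, and the mutant at day 1 had 3. The labels do not say whether replicates were separate cultures or whether the mutant was 1 clone or several, so that p-values measure only the spread between these libraries, and the mutation cannot be told apart from the line that carries it.

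Ribosomal proteins assemble with ribosomal RNA into the large (Rpl) and small (Rps) subunits, and their genes are transcribed by RNA polymerase II. They are short, highly expressed and needed in near-equal amounts. Most of their mRNAs begin with a 5′ terminal oligopyrimidine (TOP) tract, a C followed by pyrimidines at the first transcribed bases, through which mTOR signalling controls their translation. Mammalian genomes also carry many processed pseudogenes of these genes, which share most of the mRNA sequence.

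Library totals lay between 47350441 and 56138844 counts, and values are CPM (counts per 1000000, on TMM-adjusted library sizes). The summed level of 10 embryonic stem cell markers was 7331 to 9387 CPM in the mutant and 5065 to 10410 CPM in WT. Stromal and mesoderm markers (9 of 11 tested) summed to 12.9 to 55.8 CPM in the mutant and to 31.2 to 1079 CPM in WT. Replicate 1 of WT at day 0 (687 CPM), day 1 (1079 CPM) and day 2 (169 CPM) held the 3 highest of these sums, and the first 2 are called the stromal pair below. In that pair Tagln was at 329 and 508 CPM and Acta2 at 151 and 327 CPM. Thy1 of the same list went the other way, at 4.96 and 3.43 CPM against 23.3 and 16.7 CPM in WT replicate 2 of these days. Pdgfrb was at 5.63 and 5.76 against 4.13 and 12.1 CPM, so the name rests on the sum and not on every marker. Primitive endoderm markers (13 of 13) summed to 371 to 743 CPM in the mutant and 655 to 1702 CPM in WT. WT replicate 2 held 1453, 1459, 1670 and 1702 CPM of these at days 0, 1, 2 and 7, and WT replicate 1 held 858, 1058, 655 and 735 CPM, so that replicate 2 was higher at every day. In bulk RNA, fewer cells of a type and less RNA per cell cannot be told apart.

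Levels among the members spanned a wide range. Per kb of exon, averaged over the 17 libraries, the highest were Rpl8 at 3574, the stalk gene Rplp1 at 3273, and Rps15 at 2927 CPM per kb, and Rpl4 was at 2558 CPM per kb. The lowest were Rpl3l, a muscle-type paralog of Rpl3, at 1.51, then Rpl29 at 17.7, Rpl17 at 18.8, Rps27 at 20.8 and Rps13 at 23.7 CPM per kb. Rpl8 and Rpl4 shared 1.41% and 5.14% of their transcript's 100-base stretches with any other annotated gene, whereas Rps27 shared 98.4% and Rps13 77.5%. In the 31 members with at least 50% of stretches shared, the median level was 135.5 CPM per kb, against 414.5 in the 16 members with under 10% shared and 197.8 in the 35 between. Across the 82 members, which share libraries and depth, the log2 level per kb and the percentage shared correlated at r = -0.34 and rho = -0.36. How reads that match several genes were counted is not given in the sources used here, so the levels of shared members are uncertain. A further uncertainty touches 10 members whose exons overlap another gene, among them Rpl5 (Fam69a), Rps27a (Clhc1) and Rpl12 (Lrsam1).

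**Figure D1:**
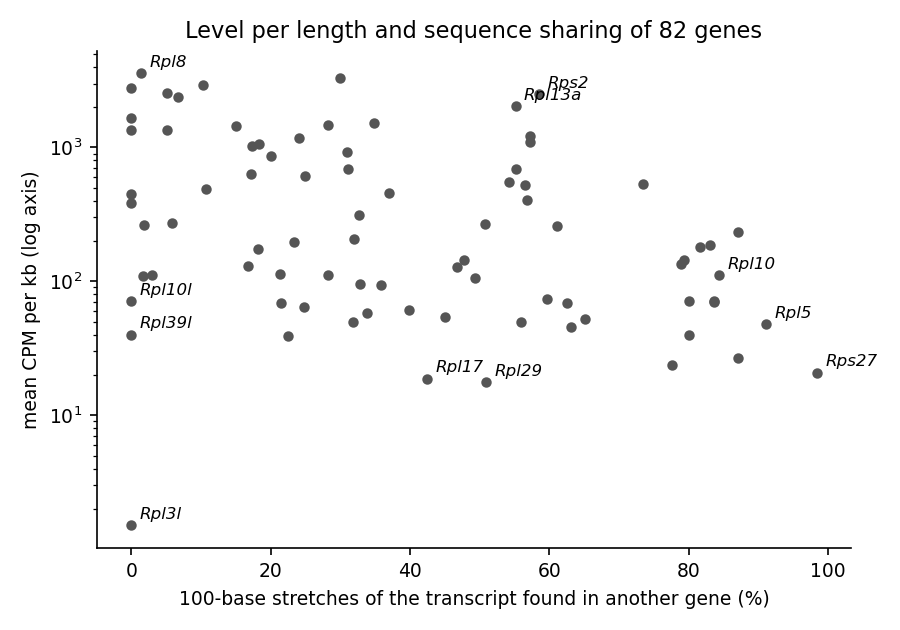
Mean level per kb of exon over 17 libraries (log axis) of each of the 82 ribosomal protein genes, against the percentage of 100-base stretches of its transcript that occur in another annotated gene. Rpl8 (3574 CPM per kb) lies at the upper left, Rps27 (20.8) at the lower right, and Rpl3l (1.51) is low although it shares no stretch.

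The members moved together from library to library. Their summed level at day 0 was 49220 and 50820 CPM in the mutant, against 34120 and 36050 CPM in WT. At day 1 it was 88530, 65330 and 50050 CPM in the mutant, against 35930 and 58210 CPM in WT. At day 2 it was 41840 and 67590 CPM in the mutant, against 35430 and 61610 CPM in WT. At day 7 the sums were 43980 and 50980 CPM in the mutant, against 45430 and 64400 CPM in WT. The genotypes did not overlap at day 0, and overlapped on each later day. From day 1 on, libraries of 1 group differed by up to 1.77-fold in the mutant (day 1) and 1.74-fold in WT (day 2), with 79 and 68 of the 82 members higher in the higher library. In WT the higher library was replicate 2 at every day, the library that also had the higher primitive endoderm sum; the part of these markers in the members' level was not tested. Of the 82 members, 57 correlated with the mean of the others at r of 0.8 or more over the 17 libraries. The 9 members under 0.5 were Rpl30 (0.12), Rpl3 (0.12), Rpl27 (0.13), the paralogs Rpl39l (0.26), Rpl10l (0.38) and Rpl7l1 (0.44), then Rpl23a (0.45), Rpl5 (0.47) and Rpl10 (0.47).

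**Figure D2:**
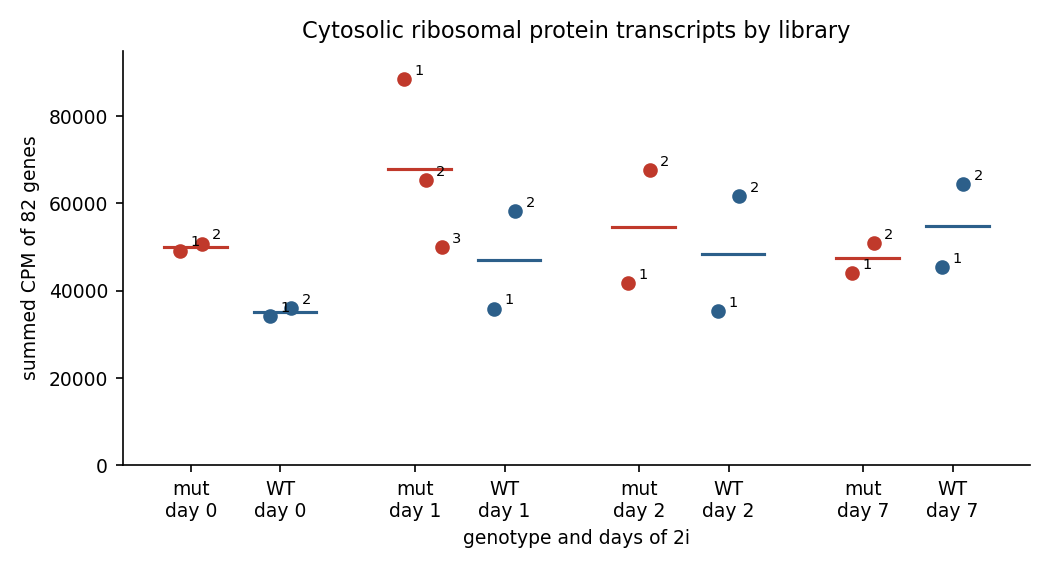
Summed CPM of the 82 genes in each library, by genotype and days of 2i; points are libraries with their replicate number and bars are group means. The mutant libraries at day 0 (49220 and 50820 CPM) lie above those of WT (34120 and 36050 CPM), and the groups overlap at days 1, 2 and 7.

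The members' level moved with a trend on gene length that was measured in all other genes. The exonic length of members ran from 383 bp (Rpl36) to 5395 bp (Rps15a). In each library, the log2 deviation of all other genes from their own mean was fitted on log2 exonic length. The slope ran from -0.23 per doubling of length in the mutant at day 1, replicate 1, to 0.19 in WT at day 1, replicate 1, and the members' mean log2 deviation was 0.65 and -0.46 in these libraries. Over 17 libraries, slope and members' mean correlated at r = -0.91 and rho = -0.93, and at r = -0.91 without the 2 libraries farthest from the median slope. Within the genotypes r was -0.96 in the mutant (n = 9) and -0.96 in WT (n = 8). Members and other genes under 1500 bp were close in some libraries and apart in others. In the mutant at day 1, replicate 1, the median deviation was 0.71 for the members and 0.41 for other short genes, and in WT at day 0, replicate 2, it was -0.44 and -0.06. In the mutant at day 2, replicate 1, the medians were -0.24 and -0.26, in WT at day 7, replicate 2, they were 0.33 and 0.33, and in WT at day 1, replicate 2, they were 0.20 and 0.29. Over the same 17 libraries, which all these genes share, the members' mean correlated with the median of 77 mitochondrial ribosomal protein genes at r = 0.92 (rho = 0.86, and 0.89 without the 2 farthest libraries). With 17 translation factors and related genes whose mRNAs carry TOP tracts it correlated at r = 0.95 (rho = 0.92, and 0.93 without the 2 farthest). The part of the length trend in each result below was not tested beyond the fits with length offsets.

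**Figure D3:**
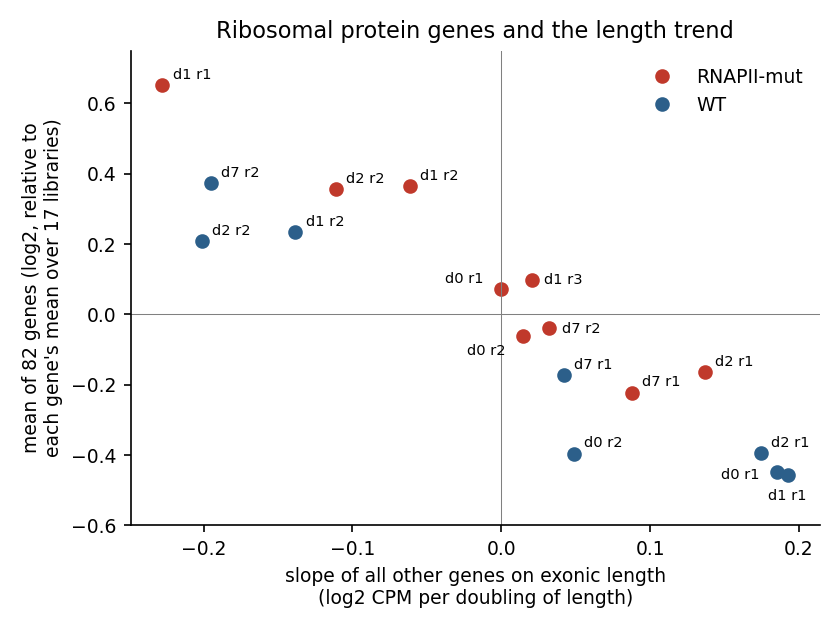
Members' mean log2 deviation against the slope of all other genes on exonic length (log2 CPM per doubling), 1 point per library, labelled with day (d) and replicate (r). The mutant library d1 r1 is at the upper left (slope -0.23, mean 0.65) and WT d1 r1 at the lower right (0.19, -0.46).

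The genotypes were first compared in serum and LIF, before 2i. At day 0 most ribosomal protein genes measured higher in the mutant, with a median log2 difference of 0.44 (74 of 82 positive) against -0.05 over all genes tested. Both mutant libraries lay above both WT libraries for 58 of 82 members, where the same held for 23.6% of all genes. Rpl5, which carries 5S ribosomal RNA into the large subunit together with Rpl11, was at 122 and 121 CPM in the mutant, against 78.9 and 65.7 CPM in WT (log2 0.75, SE 0.18, edgeR adjusted p = 0.0955). The highest log2 difference was that of Rpl3l at 1.46 (SE 0.91, adjusted p = 0.531), which was at 3.33 and 3.76 CPM in the mutant and at 0.335 and 2.23 CPM in WT. The lowest was that of Rpl39l at -1.12 (SE 0.76, adjusted p = 0.576).

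No single member passed the test at day 0: edgeR called 0 of 82, where it called 0.28% of all 15365 genes. At an unadjusted p under 0.05 there were 17 members beside 13.2% of all genes, and DESeq2 called 1, Rpl5, beside 4.56%. WT replicate numbers paired the WT libraries across days, and with a WT replicate block 2 members were called higher, Rpl5 and Rpl3l, beside 3.75% of all genes. That block takes the gap between WT replicates out of the spread, so its genotype calls do not weigh that gap. The share of all genes called rose from 0.28% to 3.75% under it. The median was 0.42 with offsets for the trend on exonic length, with 2 calls beside 1.57% of all genes, Rpl7 among them, and at 0.41 to 0.50 with each library left out. Those offsets moved the median of all genes to 0.09. WT replicate 1 carried the stromal transcripts given above, and the median without it lay in the same range.

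Averaged over the 4 days, 8 ribosomal protein genes were higher in the mutant and none lower. These 8 of 82 stand beside 12.8% of all genes called in this comparison (822 higher and 1151 lower), so the share is near the background. At an unadjusted p under 0.05 there were 20 members, beside 27.8% of all genes. The members' median was 0.22 (72 of 82 positive), against -0.03 over all genes. This fit takes all 17 libraries as independent, although WT libraries of the same number deviated together across days. Its standard errors and p-values may therefore be too small, and leaving out 1 library at a time does not test this. From larger to smaller, 7 of the 8 called members were Rpl5, Rps12, Rps27, Rpl10, Rpl7, Rpl27a and Rpl15, with folds of 1.53 to 1.21.

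Rpl5 was the most regular of these members. At day 1 it was at 148, 138 and 113 CPM in the mutant, against 75.5 and 83.0 CPM in WT, at day 2 at 107.5 and 104 against 78.8 and 63.3 CPM, and at day 7 at 109 and 94.7 against 81.6 and 74.0 CPM. All 9 mutant libraries lay above all 8 WT libraries. The averaged log2 difference was 0.61 (SE 0.09, edgeR adjusted p = 0.00113), and the call held without each of the 17 libraries (largest adjusted p = 0.00575). Its transcript shares 91.1% of 100-base stretches with other genes, 5 of the 6 pseudogenes, and its exons overlap Fam69a.

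Rpl10, an X-linked large subunit protein that joins late, close to the catalytic centre, was at 135 and 106 CPM in the mutant at day 0, against 87.8 and 65.5 CPM in WT. At day 1 it was at 132, 137 and 117 CPM in the mutant, against 88.8 and 78.4 CPM in WT, and at day 2 at 127 and 103 against 86.6 and 74.4 CPM. At day 7 it was at 95.2 and 93.0 CPM in the mutant, within the WT libraries at 83.9 and 97.4 CPM. The averaged difference was 0.46 (SE 0.09, adjusted p = 0.00869), held without each library in turn (largest adjusted p = 0.034) and missed the threshold with span or exonic length offsets (0.0506 and 0.0696). Rpl10 shares 84.4% of its stretches.

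The 4 members on chromosome 15 (Rpl3, Rpl8, Rpl30 and Rpl37) had a median averaged difference of -0.05, beside -0.27 for the other genes tested on that chromosome. On chromosome 8, where Rpl13 lies, the other 799 genes tested had a median averaged difference of 0.36. The part of these chromosome-wide shifts in the level of single genes was not tested.

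The small subunit members of the 8 were Rps12 and Rps27. Rps12 ran from 87.4 to 223.5 CPM in the mutant and from 65.6 to 111 CPM in WT (averaged log2 0.57, SE 0.15, adjusted p = 0.024). Rps27 ran from 8.96 to 16.1 CPM in the mutant and from 6.09 to 10.3 CPM in WT (0.51, SE 0.13, adjusted p = 0.0273). Both share most of their transcript with other genes, 81.7% and 98.4%. The last 3 are large subunit proteins: Rpl7 ran from 1492 to 2910 CPM in the mutant and 1061 to 1795 CPM in WT (0.45, adjusted p = 0.0301). Rpl27a ran from 94.1 to 169 CPM in the mutant and 72.8 to 115 CPM in WT (0.33, adjusted p = 0.0349), and Rpl15 from 237 to 329.5 CPM in the mutant and 195 to 238 CPM in WT (0.28, adjusted p = 0.0334). In these 5 genes the genotypes overlapped by library.

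Apart from Rpl5 and Rpl10, the calls of the named members rested on most libraries being present. Of the 17 fits that left out 1 library each, Rps12 missed the threshold in 4 (WT day 2 replicate 2, and mutant replicate 1 of days 0, 2 and 7). Rps27 missed it in 8 (WT replicate 1 of day 2, both WT libraries of day 7, both mutant libraries of day 0, mutant replicate 2 of day 2 and both mutant libraries of day 7). Rpl7 missed it in 9, and kept it without WT replicate 2 of any day, any mutant library of day 1 or mutant replicate 1 of day 2. Rpl15 missed it in 12, and kept it without WT replicate 2 of days 0, 1 or 2, mutant replicate 3 of day 1 or mutant replicate 1 of day 2. Rpl27a missed it in 14, and kept it without WT replicate 1 of day 0, WT replicate 2 of day 1 or mutant replicate 3 of day 1. The count of 8 fell to 5 without WT replicate 1 of day 0 or of day 2. It fell to 3 without WT replicate 1 of day 7, either mutant library of day 0, mutant replicate 2 of day 2 or mutant replicate 2 of day 7, and to 2 without mutant replicate 1 of day 7, and was 12 without WT replicate 2 of day 1. The median was 0.14 without WT replicate 1 of day 1 or of day 2, and 0.13 without mutant replicate 2 of day 2. Without the stromal pair 5 were called: Rpl5, Rps12, Rpl10 and Rpl27a were kept, and Rpl39l was called lower, beside 12.9% of all genes. With the WT replicate block 18 were called, 17 higher and Rpl39l lower, among them all 8, beside 22% of all genes, so that this share is that of the background. Offsets for the exonic length trend raised the count to 40, of which 39 were higher, beside 19.2% of all genes under the same offsets; 6 of the 8 were kept.

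The windows around the RefSeq starts of the called members differ in their pyrimidine runs. A TOP mRNA is defined by such a run at its first transcribed bases. Shown are 30 bases of the genome around the RefSeq start, 10 before it and 20 from it on, for 6 of the members that are higher in the mutant, for Rpl27, which fell in the mutant at day 7, and for Rpl39 with its paralog Rpl39l. Capitals mark the longest run of at least 5 pyrimidines. All are 5′ to 3′ on the gene's strand, RefSeq on GRCm38.p6. In order, they lie at chr5:107900518-107900547 (plus), chrX:74270806-74270835 (plus), chr10:23787190-23787219 (minus), chr3:90213629-90213658 (minus), chr7:109519185-109519214 (plus), chr14:18270967-18270996 (minus), chr11:101442235-101442264 (plus), chrX:37085203-37085232 (minus) and chr16:10170218-10170247 (plus).
Rpl5: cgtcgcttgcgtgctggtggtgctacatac
Rpl10: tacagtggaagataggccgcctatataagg
Rps12: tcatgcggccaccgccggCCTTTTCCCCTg
Rps27: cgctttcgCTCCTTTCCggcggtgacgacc
Rpl27a: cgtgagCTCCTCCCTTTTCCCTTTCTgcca
Rpl15: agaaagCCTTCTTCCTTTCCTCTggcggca
Rpl27: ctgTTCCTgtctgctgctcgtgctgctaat
Rpl39: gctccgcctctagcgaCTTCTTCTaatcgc
Rpl39l: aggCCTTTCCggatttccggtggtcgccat

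Rps27, Rpl27a and Rpl15 have a run of 9, 20 and 17 pyrimidines across the RefSeq start, and Rps12 one of 11 after it. Rpl5 and Rpl10 have no run of 5 in this window. The windows depend on where RefSeq places the start. On the gene's strand, the GENCODE gene starts of Rpl5 (base 107900502), Rpl27a (109519147), Rpl15 (18271391), Rps12 (23787275) and Rpl39 (37085402) lie before their windows. That of Rpl27 (101442298) lies after its window. A window without a run therefore does not show that the mRNA lacks a TOP tract, and a run does not show that the mRNA begins with it. A window was found for 62 of the 82 members. A C followed by at least 4 pyrimidines exactly at the annotated start was present in 13 of 62 members (21.0%) and in 2.97% of 26963 other genes (2.51% of all windows). Allowing 10 bases either side, it was present in 39 members (62.9%), against 34.3% of other genes (30.7% of all windows). The 13 members with the tract at the start, which include Rpl15, Rps27, Rps6 and Rplp2, had a median averaged difference of 0.22, and the other 49 members with a window had 0.22. In the 250 bases before the start, on both strands and with each motif searched alone, CCGGAAG (an ETS and GABP motif) was in 18 of 62 members (29.03%), against 7.78% of other genes and 6.91% of all windows. GGGCGG (SP1) was in 32 members (51.6%), against 35.3% of other genes and 32.7% of all windows. TATAAA was in 4 members (6.45%), against 14.4% of other genes and 12.4% of all windows. The E-box CACGTG, bound by Myc family factors, was in 5 members (8.06%), against 6.86% of other genes and 6.02% of all windows, and the YY1 core AAGATGGC in 3 (4.84%), against 1.82% and 1.56%. These matches describe letters in the windows and are not binding sites.

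On the single days of 2i, no ribosomal protein gene differed between the genotypes in edgeR. At day 1 the median difference was 0.48 (78 of 82 positive), with 0 of 82 called beside 0.417% of all genes. At an unadjusted p under 0.05 there were 26 members beside 14.4% of all genes. DESeq2 called 4 (Rps27, Rpl5, Rpl10 and Rpl15) beside 5.01% of all genes, and the WT replicate block 4, among them Rpl13, Rpl17 and Rpl5, beside 4.52%. The median fell to 0.20 without WT replicate 1 of day 1, was 0.88 without WT replicate 2, and was 0.32 without mutant replicate 1. At day 2 the median was 0.17 (72 positive), with 0 called beside 0.0716% of all genes, 5 members at an unadjusted p under 0.05 (6.04% of all genes) and 0 in DESeq2. It was 0.28 with exonic length offsets, -0.12 without WT replicate 1 of day 2, 0.58 without WT replicate 2, 0.47 without mutant replicate 1 and -0.17 without mutant replicate 2.

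After 7 days of 2i the sign of the median was the opposite. It was -0.28, with 73 of 82 members lower in the mutant, 0 called beside 0.0976% of all genes, 2 members at an unadjusted p under 0.05 (9.53% of all genes) and 0 in DESeq2. Both mutant libraries lay below both WT libraries for 20 of 82 members, where 23.8% of all genes did so. The median became 0.06 with exonic length offsets and 0.04 without WT replicate 2 of day 7, the WT library with the steepest negative slope of that day. It was -0.52 without WT replicate 1 and -0.18 without mutant replicate 1. Rpl5 was the highest member at 0.39 (adjusted p = 0.519), and Rpl39l the lowest at -1.33 (SE 0.76, adjusted p = 0.621).

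**Figure D4:**
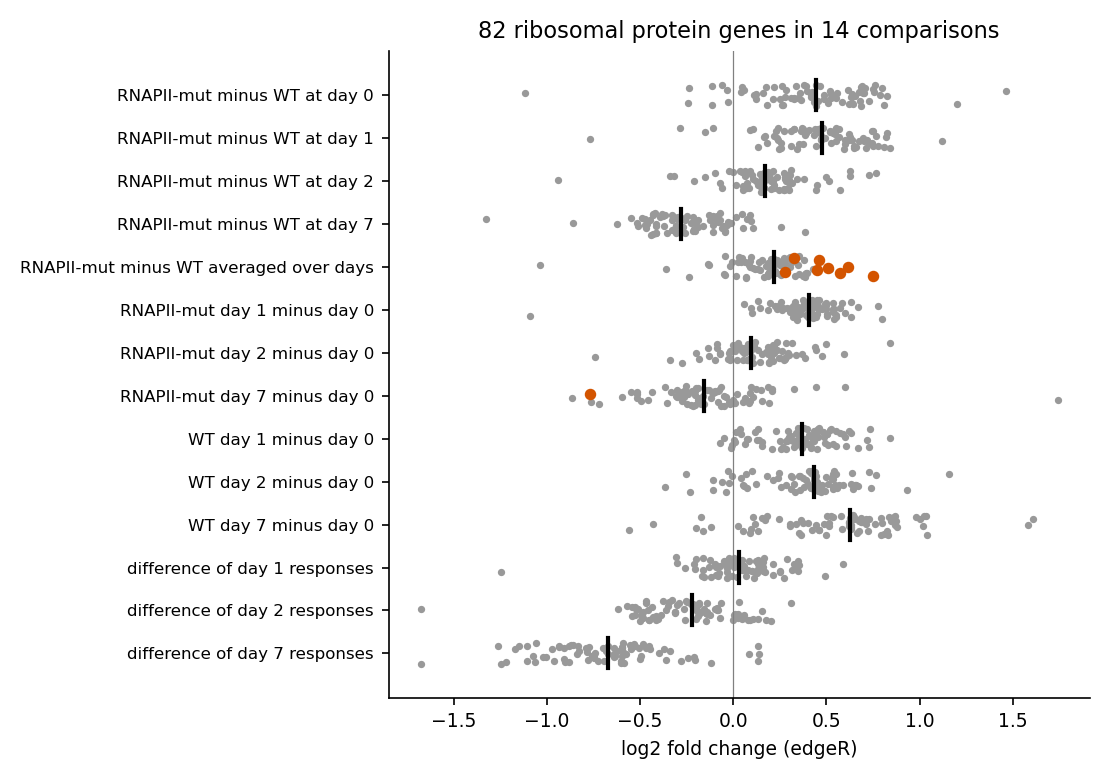
Log2 fold change of each of the 82 genes (points) in the 14 comparisons, with the median as a black bar; orange points passed adjusted p under 0.05 in edgeR. The medians run from -0.67 in the difference of day 7 responses to 0.62 in WT at day 7, and 8 genes passed in the averaged genotype comparison, with 1 gene in the mutant at day 7.

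In the mutant, the response to 2i was measured against its own day 0 libraries. The members' median was 0.40 at day 1 (81 of 82 positive), 0.10 at day 2 (64 positive) and -0.16 at day 7 (61 negative). At day 1, 0 members were called beside 1.41% of all genes, with 4 at an unadjusted p under 0.05 (13.2% of all genes) and 0 in DESeq2, and 31 had all 3 libraries above both of day 0 beside 19.5% of all genes. Without mutant replicate 1 of day 1 that median was 0.23, and with exonic length offsets 0.22. At day 2, 0 were called beside 2.92% of all genes, with 0 at an unadjusted p under 0.05 (15% of all genes) and 0 in DESeq2. The median was 0.05 with exonic length offsets, -0.21 without mutant replicate 2 of day 2 and 0.34 without replicate 1. It was 0.19 without mutant replicate 1 of day 0.

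At day 7 in the mutant, 1 member fell, Rpl27, beside 14.2% of all genes called in either direction. At an unadjusted p under 0.05 there were 7 members, beside 28.5% of all genes. Rpl27, a large subunit protein, was at 56.6 and 60.7 CPM at day 7, against 122 and 77.9 CPM at day 0 (log2 -0.77, SE 0.23, edgeR adjusted p = 0.04). In WT it was at 69.2 and 90.7 CPM at day 7, against 120 and 116 CPM at day 0 (-0.56, SE 0.23, adjusted p = 0.119). The mutant call was lost without mutant replicate 1 of day 0, replicate 1 of day 7 or replicate 2 of day 7 (largest adjusted p = 0.454), and with exonic length offsets (adjusted p = 0.139). The lowest member was Rpl29 at 8.94 and 8.97 CPM at day 7, against 21.0 and 11.7 CPM at day 0 (-0.87, adjusted p = 0.0726). The WT replicate block called Rpl27, Rpl29 and Rpl34 lower and Rpl10l higher, 4 of 82 members beside 25.1% of all genes. Both day 7 libraries lay below both day 0 libraries for 30 of 82 members, where 34.2% of all genes did so. The median was -0.09 with exonic length offsets, -0.06 without mutant replicate 1 of day 0 and -0.10 without replicate 1 of day 7.

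In WT, the members' median against day 0 was 0.37 at day 1 (78 of 82 positive), 0.43 at day 2 (72 positive) and 0.62 at day 7 (76 positive). No member passed the test in edgeR: 0 of 82 at day 1 beside 0.202% of all genes, 0 at day 2 beside 2.16% and 0 at day 7 beside 12.7%. At an unadjusted p under 0.05 there were 0, 0 and 20 members at the 3 times, beside 8.42%, 17.1% and 29.4% of all genes. DESeq2 called 0, 0 and 2 (Rps20 and Rps10), the last beside 21.1% of all genes. With exonic length offsets the median was 0.19 at day 1 and 0.21 at day 2. The median was -0.0049 at day 1 without WT replicate 2 of that day and 0.68 without replicate 1. At day 2 it was 0.05 without WT replicate 2 and 0.72 without replicate 1, and at day 7 it was 0.31 without WT replicate 2. At day 7 both libraries lay above both of day 0 for 53 of 82 members, where 28% of all genes did so. The smallest adjusted p was that of Rps20, a small subunit head protein, at 1027 and 1402 CPM at day 7, against 565 and 631 CPM at day 0 (1.02, SE 0.34, adjusted p = 0.0666). The WT replicate block at day 7 called 7 higher, among them Rpl3l, Rpl10l, Rps20, Rps18, Rps10 and Rps28, beside 26.1% of all genes. Exonic length offsets brought the median to 0.32 with 4 called (Rps20, Rps10 and Rps18 among them), beside 17.8% of all genes.

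The difference between the genotypes' responses was tested as an interaction. Its median was 0.03 at day 1, -0.22 at day 2 and -0.67 at day 7, where 78 of 82 members had a negative value. A negative value means a lower signed log2 change in the mutant than in WT, not a smaller change. The members' medians at day 7 against day 0 were -0.16 in the mutant and 0.62 in WT. edgeR called 0 members at each time, beside 0%, 0% and 0% of all genes. At day 7, 11 members had an unadjusted p under 0.05 beside 7.67% of all genes, and DESeq2 called 73 genes and 0 members. At days 1 and 2 there were 0 members at an unadjusted p under 0.05, beside 0.768% and 2.38% of all genes, and 0 in DESeq2. The member with the smallest p at day 7 was Rpl17, at 18.6 and 19.5 CPM in the mutant at day 7 against 31.5 and 26.2 CPM at day 0, and in WT at 18.1 and 33.3 CPM at day 7 against 16.8 and 16.6 CPM at day 0 (-1.22, SE 0.40, adjusted p = 0.557). With exonic length offsets the medians were 0.06, -0.09 and -0.27 at days 1, 2 and 7. Without WT replicate 2 of day 7 the day 7 median was -0.42. At day 2 it was -0.57 without WT replicate 1, 0.10 without WT replicate 2, -0.01 without mutant replicate 1 and -0.63 without mutant replicate 2. At day 1 it ranged from -0.27 (without WT replicate 1 of day 1) to 0.42 (without WT replicate 2).

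Among the paralogs, Rpl39l and Rpl10l were 2 of the members least correlated with the others. Rpl39l, a paralog of Rpl39 known for its testis-enriched expression in the mouse, was at 17.9 and 14.6 CPM in the mutant at day 0, against 20.1 and 50.3 CPM in WT. At day 1 it was at 16.4, 20.7 and 31.6 CPM in the mutant, against 16.6 and 61.6 CPM in WT, and at day 2 at 14.99 and 34.0 against 21.5 and 72.5 CPM. At day 7 it was at 14.04 and 35.2 CPM in the mutant, against 32.8 and 90.7 CPM in WT. WT replicate 2 was highest at every day, and WT replicate 1 overlapped the mutant at days 1, 2 and 7. The averaged log2 difference was -1.04 (SE 0.37, adjusted p = 0.0857), and the WT replicate block called it lower (-0.83, adjusted p = 0.0112). That block leaves the gap between WT replicates, which was wide for Rpl39l, out of the spread. WT replicate 2 also had the higher primitive endoderm marker sums given above. Per kb, Rpl39l was at 0.0463 to 0.147 of the level of Rpl39 in the mutant libraries and at 0.12 to 0.295 in the WT libraries. Rpl39 itself differed by 0.19 (SE 0.21, adjusted p = 0.62).

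Rpl10l, an intronless copy of Rpl10 that serves male meiosis in the mouse, was higher after 7 days of 2i in both genotypes without passing the test. It was at 112 and 144 CPM in the mutant at day 7, against 41.9 and 34.5 CPM at day 0 (log2 1.74, SE 0.66, adjusted p = 0.0957). In WT it was at 87.8 and 149.5 CPM at day 7, against 26.1 and 51.7 CPM at day 0 (1.61, SE 0.65, adjusted p = 0.121). Both day 7 libraries lay above both of day 0 in each genotype, as did 34.6% of all genes in the mutant and 28% in WT. The WT replicate block called Rpl10l in both (adjusted p = 0.00195 in the mutant and 0.003 in WT), beside 25.1% and 26.1% of all genes. Rpl10, in contrast, differed by -0.36 (adjusted p = 0.248) and 0.24 (adjusted p = 0.426), so that the ratio of Rpl10l to Rpl10 per kb was 1.04 and 1.36 at day 7, against 0.274 and 0.288 at day 0, in the mutant. In WT that ratio was 0.923 and 1.36 at day 7, against 0.263 and 0.697 at day 0. Rpl10l and Rpl39l share no 100-base stretch with another gene.

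**Figure D5:**
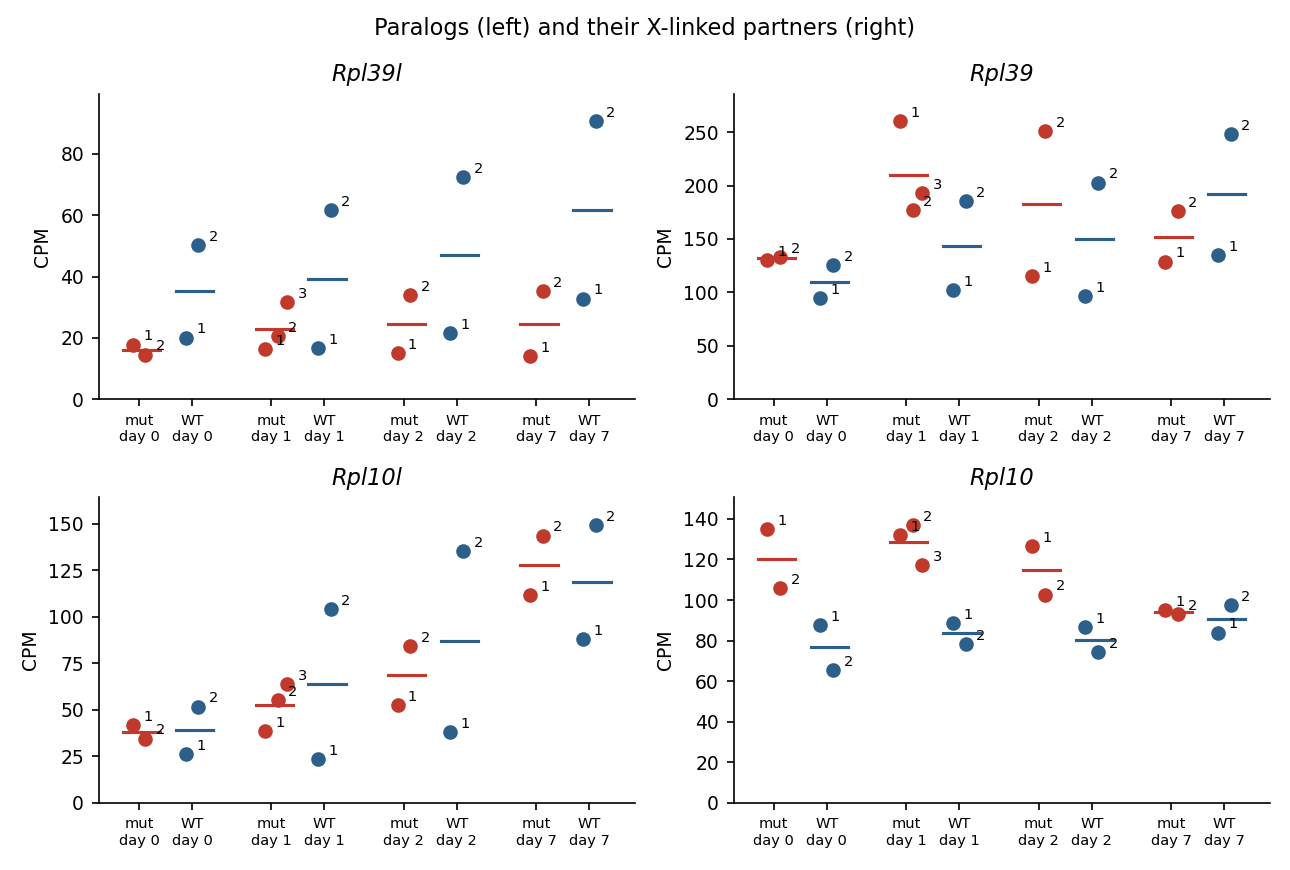
CPM of Rpl39l and Rpl10l (left) and of their X-linked partners Rpl39 and Rpl10 (right) in each library, with the replicate number; bars are group means. Rpl39l reaches 90.7 CPM in WT day 7 replicate 2 and 35.2 CPM in the mutant, and Rpl10l at day 7 lies above day 0 in both genotypes.

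For the other paralogs, per kb, Rpl22l1 was at 0.548 to 0.799 of Rpl22 in the mutant libraries and at 0.567 to 0.873 in WT, and Rpl7l1 at 0.0478 to 0.0832 of Rpl7 in the mutant and 0.0662 to 0.119 in WT. Rpl3l stayed under 0.0226 of Rpl3 in every library. Rps27l, known as a p53 target, was at 17.9 to 24.4 times the level of Rps27 in the mutant and 18.0 to 34.4 times in WT, where Rps27 shares nearly all of its sequence with other genes and Rps27l shares none. Rpl36al, which the naming rule leaves out, was at 1.84 to 2.73 times Rpl36a in the mutant and 1.93 to 3.23 times in WT. Rps4x, the X-linked small subunit gene, differed by 0.26 on average (adjusted p = 0.28).

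Of members named for their roles, the following did not pass the averaged test in the unblocked fit. Of the stalk genes, which recruit elongation factors to the large subunit, Rplp0 differed on average by 0.42 (adjusted p = 0.0609), Rplp1 by 0.40 (0.348) and Rplp2 by 0.14 (0.757). The WT replicate block, which leaves the gap between WT replicates out of the spread, called Rplp0 higher (0.43, adjusted p = 0.0233). DESeq2 also called it (adjusted p = 0.0301). At day 0 Rplp0 was at 1532 and 1451 CPM in the mutant, against 971 and 829 CPM in WT. Rpsa, the small subunit protein also known as the laminin receptor, was at 1706 and 1697 CPM in the mutant, against 1224 and 1091 CPM in WT (averaged difference 0.21, adjusted p = 0.513). Rps6, the substrate of S6 kinase, was at 68.8 and 44.6 CPM in the mutant, against 50.5 and 46.9 CPM in WT (0.06, adjusted p = 0.795). Rps27a, made as a fusion to ubiquitin, differed by 0.20 (adjusted p = 0.332), and Rpl11, the partner of Rpl5 in binding Mdm2, by 0.03 (adjusted p = 0.947). Rps19, mutated in Diamond-Blackfan anaemia, differed by 0.12 (adjusted p = 0.755), and Rps25 by 0.20 (adjusted p = 0.374). Rpl10a and Rpl38, both studied for roles in translating selected mRNAs, differed by 0.14 (adjusted p = 0.466) and -0.01 (adjusted p = 0.978).

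Ribosome biogenesis factors (40 of 41 tested) had a median of -0.41 in the mutant at day 7, with 5 lower, and of -0.33 in WT at day 7, with 3 lower. The 5 and 3 of 40 stand beside 14.2% and 12.7% of all genes called in these comparisons, so neither share is above the background. Nolc1, a nucleolar chaperone, fell in both (log2 -1.11 in the mutant, adjusted p = 0.000498, and -0.67 in WT, adjusted p = 0.00992), as did Nifk (-0.55, adjusted p = 0.0466, and -0.87, adjusted p = 0.00716). Bop1 (-0.85), Nop16 (-0.73) and Grwd1 (-0.68) fell in the mutant and Heatr1 (-0.72) in WT. The members' medians in the same comparisons were -0.16 and 0.62. In the averaged genotype comparison 1 biogenesis factor was higher in the mutant, Nob1 (0.40, adjusted p = 0.01).

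Of the 17 translation factors and related genes with TOP tracts, 3 were higher in the mutant on average: Eef1b2 (0.52, adjusted p = 0.0205), Nap1l1 (0.44) and Eef2 (0.27), with a median of 0.16. In WT at day 7, 2 rose, Eif3f (0.82, adjusted p = 0.0451) and Eef2 (0.53, adjusted p = 0.0408). These 3 and 2 of 17 stand beside 12.8% and 12.7% of all genes called. Of 25 other initiation, elongation and termination factors none passed on average. Eif2s2 rose in the mutant at days 1 and 7 (0.99 and 0.95) and in WT at day 7 (0.98), Eif3b fell in the mutant at day 7 (-0.64) and Etf1 in WT at day 7 (-0.56). Of 16 regulators of mTOR and TOP translation, Sesn1 rose in the mutant at day 7 (0.86, adjusted p = 0.0429) and no other passed in the 14 comparisons.

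Among 11 tested transcription factors with known roles at these promoters, Myc, which drives ribosome production, fell in both genotypes. Its log2 change was -2.59 at day 2 and -2.69 at day 7 in the mutant (adjusted p = 0.0489 and 0.0152), and -3.27 and -3.38 in WT (adjusted p = 0.0264 and 0.00699). Mxd3, a Max partner, fell in the mutant at day 7 (-1.25, adjusted p = 0.0369). The 77 mitochondrial ribosomal protein genes had medians of 0.17 at day 0 and 0.08 on average between the genotypes, with 3 higher (Mrps31, Mrpl16 and Mrps27) and 3 lower (Mrpl19, Mrpl53 and Mrpl38) on average, 6 of 77 beside 12.8% of all genes. In the mutant at day 7 their median was -0.25 with Mrpl18 lower (-0.65), and in WT at day 7 it was 0.19 with none called. Of 12 genes of the p53 response, which Rpl5 and Rpl11 can trigger through Mdm2, none passed between the genotypes. Over time Cdkn1a rose in the mutant at days 1, 2 and 7 (1.85, 1.96 and 2.63) and in WT at day 7 (2.13), whereas Bbc3 fell in the mutant (-1.16) and Pmaip1 in WT (-1.88) at day 7.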

How the data were processed

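Total RNA of 17 libraries was measured. The deposited values are raw counts per gene in 1 table made by the authors. The submitters' processing notes name STAR, deepTools and the mm10 build, without versions. The counter, annotation, strand setting and treatment of multi-mapping reads are not given in the sources used here. No sample column was left unused. Genes were tested with edgeR 4.0.16 (R 4.3.3; TMM, filterByExpr, 8 group coefficients, quasi-likelihood, two-sided, Benjamini-Hochberg over 15365 genes, threshold 0.05); a standard error is the fold change divided by the root of F. The fit had 9 residual degrees of freedom and a common biological coefficient of variation of 0.333. The tests were checked on simulated data. The simulated counts were independent between libraries and held neither shared deviations of WT replicates nor a length trend. That check therefore does not cover the effect of such features on the p-values.

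Groups were read from the sample titles, and 14 comparisons were made. Members and lists were chosen with earlier results of these data known. The text names members that passed the test, those highest, lowest or of smallest p in a comparison, paralogs, and members with set roles. Some genes that this rule names are counted but not reported here by name. Alternatives were DESeq2 1.42.0, other normalisations and filters, loess offsets (span 0.3) on genomic span or exonic length, replicate blocks and left-out libraries. Same-numbered WT libraries deviated together in 6 of 6 pairs of days (r = 0.24 to 0.74). WT numbers were therefore taken as paired, and blocked fits are given where they move a count. The WT block takes the gap between WT replicates out of the spread. Genotype calls under it therefore do not weigh that gap. Lengths and shared 100-base stretches came from GENCODE M21 transcripts, and start sites from RefSeq. Library totals of 47350441 to 56138844 counts leave the spread between replicates, more than counting error, as the limit on precision.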

Additional observations from a re-analysis of the deposited data

How the results depend on the processing

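Of the 252 counts of called members computed under alternatives, 208 kept within 1.5 times of the edgeR count, 41 moved and 3 changed direction. The cause was not tested. In most comparisons edgeR called 0 members, and an alternative that also called 0 is among the 208. At day 0 (edgeR 0), 2 members were called with the WT replicate block (3.75% of all genes), span offsets (1.07%) or exonic length offsets (1.57%). DESeq2 called 1 (4.56%). Exonic length offsets and the WT replicate block together, a fit chosen after seeing the data, called 11 (7.89%). At day 1 (edgeR 0), 1 was called with the replicate block over both genotypes (0.358% of all genes) or span offsets (0.807%). The WT replicate block (4.52%) and DESeq2 (5.01%) called 4 each. Exonic length offsets called 3 (1.07%), and 19 together with the WT block (8.17%). Averaged over days (edgeR 8), 15 were called with the replicate block (13.8% of all genes), 18 with the WT replicate block (22%), 21 with span offsets (16.6%), 40 with exonic length offsets (19.2%), 13 with DESeq2 (19.7%), 51 with exonic length offsets and the WT block (30%), and 5 without the stromal pair (12.9%), beside 12.8% in the unblocked edgeR fit; leaving out each library gave 2 to 12. In the mutant at day 7 (edgeR 1 lower), span offsets (15.5% of all genes) and exonic length offsets (16.9%) each called 1 higher instead, Rpl10l. The same held for exonic length offsets with the WT block (27.4%). With the replicate block (16.6%) or without the stromal pair (18.4%) 2 were called, and with the WT block (25.1%) or DESeq2 (21.6%) 4. A fit of the compared groups only called 10, beside 38.8% of all genes. In WT at day 7 (edgeR 0), 2 were called with the replicate block (15.4% of all genes) or DESeq2 (21.1%). The WT block called 7 (26.1%) and span offsets 10 (16%). Exonic length offsets called 4 (17.8%), and 11 together with the WT block (30.1%). RLE normalisation, TMM from the other genes, no filter, a strict filter and the compared groups only kept the same 8 in the averaged comparison. Over all genes, replicate numbers in the mutant did not mark shared deviations across days (1 of 6 pairs over 0.1). Over the members alone, the mutant pairs ran in both directions. Their r was 0.713 for days 0 and 2, 0.568 for days 2 and 7 and 0.167 for days 0 and 7. It was -0.579 for days 0 and 1, -0.647 for days 1 and 2 and -0.166 for days 1 and 7. Between the genotypes, same-numbered libraries were over 0.1 in 10 of 16 pairs over all genes (r = -0.345 to 0.503). For libraries of the same day, r was 0.503 at day 2 and 0.344 at day 7, but -0.214 at day 1. Over the members alone it was 0.875 at day 2, 0.784 at day 7 and -0.216 at day 1. What a number shared by both genotypes stands for is not given in the labels. Of 252 medians, 16 moved by more than the spread between replicates. With 2 libraries in most groups, length trends that differ within groups limit any statement on single days.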

Other observations

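The 6 ribosomal protein genes tested that the naming rule leaves out include Fau, whose protein is made as a fusion to a ubiquitin-like sequence, Rack1, Rps3a1, Rpl36al and Rps27rt. Between the genotypes their median log2 difference was 0.36 at day 0 (6 of 6 positive), 0.35 at day 1 (6 positive), 0.05 at day 2 (4 positive) and -0.23 at day 7 (1 positive). Rps27rt was higher in the mutant averaged over the days (0.63, SE 0.19, edgeR adjusted p = 0.0418) and no other of the 6 passed in any of the 14 comparisons. In the mutant at day 7 their median against day 0 was -0.22, and in WT at day 7 it was 0.50.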
